A study of Oryza sativa Indica Group with 11 samples.

Results

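The 6 genes described here belong to the phenylpropanoid pathway of rice. They are PAL06 (LOC4330040), the 4-coumarate-CoA ligase (4CL) genes 4CL-3 (LOC4328485), LOC4345054 (also named 4CL1) and LOC4330407 (also named 4CL2), CCR1 (LOC4331085), and the laccase gene LAC20 (LOC4351006). They were found by symbol or synonym in the array's gene annotation, and all of their probe sets were taken, which gave 7 of the 57258 probe sets tested and 6 of 17905 genes measured. PAL06 has 2 probe sets and each of the other genes has 1.

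The arrays measured RNA from the crown and growing point of rice, with about 12 plants dissected for a sample and 1 sample on each of 11 Affymetrix arrays. IR29, an indica cultivar, is sensitive to salt. FL478 tolerates salt and is a recombinant inbred line with IR29 and the landrace Pokkali as parents. There were 3 arrays of FL478 control plants, 3 of salt-stressed FL478, 2 of IR29 control plants and 3 of salt-stressed IR29. FL478 therefore shares part of its genome with IR29, and each line is 1 genotype. Neither plant age nor the strength and length of the salt treatment is given in the sources used here.

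The phenylpropanoid pathway turns phenylalanine into lignin, flavonoids and wall-bound phenolics. Phenylalanine ammonia-lyase (PAL) takes the entry step to cinnamate, and 4CL joins 4-coumarate to coenzyme A at the branch point towards flavonoids and lignin. Cinnamoyl-CoA reductase (CCR) opens the lignin branch, cinnamyl alcohol dehydrogenase (CAD) completes the monolignols, and laccases oxidise monolignols in the wall, where they polymerise. In grass stems and crowns the pathway is best known for lignin in xylem and sclerenchyma walls and for phenolics made under stress.

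The deposited values are intensities on a linear scale with the same trimmed mean of 500.1 on every array. Log2 levels and differences below are on the scale of log2(intensity + 16) after quantile normalization. Intensities, their ranges and their sums are given as deposited, with array medians between 48.2 and 73.1. The pseudocount of 16 exceeded 24.4% to 30.4% of an array's values, and no detection calls were used here. IR29 control replicate 1 stood apart from the other IR29 arrays, at 31.48 on the first principal component against 55.24 to 74.95. FL478 salt replicate 2 stood apart from the other FL478 arrays, at -22.26 against -62.57 to -44.14. On the second component FL478 control replicate 3 lay at -67.47, against 1.19 to 53.08 for the other FL478 arrays. IR29 control replicate 1 lay there at -95.15, against -9.2 to 35.83 for the other IR29 arrays. Every growing point marker measured, 7 of the 8 listed, lay above the pseudocount on all arrays, among them the meristem gene OSH1 at 3200 to 6870. The leaf gene CAB2R lay at 22500 to 37800. The root markers measured, 3 of the 7 listed, also lay above the pseudocount on all arrays, with sums of 416 to 917. Lying above the pseudocount thus does not set the growing point apart from other tissues. In bulk tissue, fewer cells of a type and less RNA per cell cannot be told apart.

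**Figure D1:**
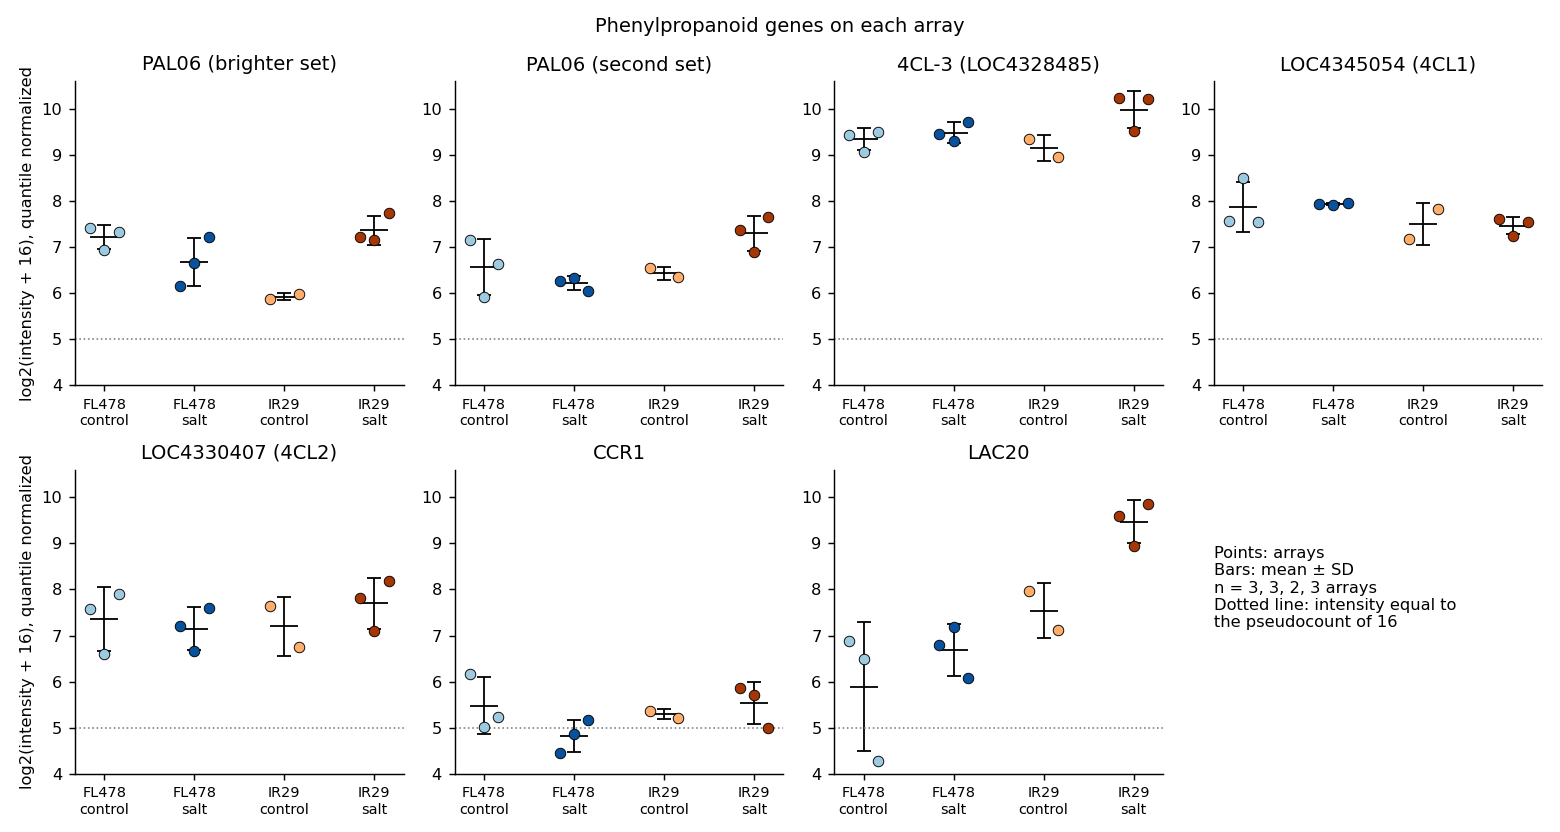
Level of each probe set on each array, as log2(intensity + 16) after quantile normalization, in the 4 groups. Points are arrays, bars are the mean ± SD, and the dotted line marks an intensity equal to the pseudocount. LAC20 is higher on all 3 salt-stressed IR29 arrays (8.94 to 9.86) than on any other array, PAL06 is low in IR29 controls at its brighter probe set (5.86 and 5.98), and CCR1 lies around the dotted line.

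The first question was how the genes differ between salt-stressed and control plants of IR29. PAL06, 4CL-3 and LAC20 had higher values on every salt array than on every control array, with folds of 2.72, 1.78 and 3.81. In IR29, 10.8% of all probe sets separated the groups in that direction and 12.7% in the other. LOC4345054 and LOC4330407, the other 4CL genes, and CCR1 overlapped between the groups. No gene of the 6 passed the test over all probe sets in either line. Limma called 3 probe sets in IR29, 0.00524% of those tested, and 5 in FL478, 0.00873%. At an unadjusted p under 0.05, 3 of the 6 genes were higher in IR29 and 0 lower, against 3.6% and 3.77% of all probe sets. In FL478 0 of the 6 were below that limit, against 5.41% of all probe sets (2.81% higher and 2.61% lower). There 0 of the 7 probe sets separated the groups, against 5.49% of all probe sets with higher and 4.83% with lower salt arrays.

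PAL06 codes for an enzyme of the entry step. Its brighter probe set, whose name ends in x_at, had intensities of 53.3 and 40.1 on the IR29 control arrays and 129.1, 122.2 and 198.1 on the IR29 salt arrays. In FL478 the same probe set gave 142.8, 103.7 and 150.7 in controls and 57.8, 91.8 and 143.3 under salt. The 2 IR29 controls were thus the lowest of all arrays, while the FL478 groups overlapped and the salt arrays of FL478 spread widely. The log2 difference between salt and control was 1.44 ± 0.37 in IR29 (SE, n = 3 and 2, adjusted p = 0.317 by limma) and -0.55 ± 0.33 in FL478 (n = 3 and 3, adjusted p = 0.941). Counted from the most positive change, the IR29 value was number 319 of 57258. Of all probe sets, 10.8% did not overlap in the same direction in IR29, and 12.7% in the other.

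The other PAL06 probe set gave 91.5 and 56 in IR29 controls and 147.6, 97.3 and 186 under salt. In FL478 it gave 111.4, 44.3 and 92.3 in controls and 63.1, 70.9 and 57.3 under salt. It also separated the IR29 groups, with a smaller difference of 0.87 ± 0.40 (adjusted p = 0.683), and its FL478 difference was -0.35 ± 0.36. Both probe sets thus lay above 0 in IR29 and below 0 in FL478. They are not replicates, since both were designed on 1 sequence, and on Affymetrix arrays an x_at set holds probes that can also bind related transcripts. The PAL family has near-identical members, so the share of each PAL gene in these values is uncertain. LOC4330034, annotated only as PAL and looked up after the values were seen, is a near neighbour of PAL06 in the RefSeq gene order. Its 5 probe sets had log2 differences between 0.19 and 0.47 in IR29 and between -0.16 and 0.16 in FL478.

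The 4CL genes did not share 1 pattern. 4CL-3, the isoform known for lignin synthesis in rice, had intensities of 607.7 and 470.7 in IR29 controls and 1198.8, 713.5 and 1143.9 under salt. In FL478 it had 676.2, 514.2 and 704.8 in controls and 669.1, 625.4 and 836.6 under salt. Replicates 1 and 3 of the salt-stressed IR29 were the highest of all arrays, while salt replicate 2 lay close to the FL478 arrays. The log2 difference was 0.83 ± 0.24 in IR29 (95% interval 0.31 to 1.35, adjusted p = 0.381 by limma) and 0.14 ± 0.21 in FL478 (-0.32 to 0.61, adjusted p = 0.979).

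LOC4330407, the 4CL gene grouped with those of the flavonoid branch, had 190.4 and 80.7 in IR29 controls and 214.6, 115.3 and 273.9 under salt. In FL478 it had 161.3, 79 and 231.3 in controls and 128.7, 93.5 and 186.8 under salt. The groups overlapped in both lines, with log2 differences of 0.49 ± 0.47 in IR29 and -0.21 ± 0.42 in FL478. The intervals were wide, at -0.53 to 1.52 and -1.13 to 0.71, so a change of up to 2.86-fold in IR29 is not excluded.

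LOC4345054 had 141 and 197.9 in IR29 controls and 179.6, 131 and 170 under salt. In FL478 it had 159.1, 334.8 and 177.6 in controls and 219.3, 239.6 and 241.6 under salt. Its salt arrays of FL478 lay within an SD of 0.03 on the log2 scale, the smallest spread of any group of these genes, and inside the range of the controls. The log2 differences were -0.04 ± 0.32 in IR29 (95% interval -0.73 to 0.65) and 0.07 ± 0.28 in FL478 (-0.55 to 0.69).

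Within the groups, 4CL-3 and LOC4330407 shared their lowest arrays. The lowest value of both genes was that of replicate 2 in each of the 4 groups. No other probe set of the 6 genes showed this, and its share over all probe sets was not counted. LOC4345054 did not follow them. Replicate 2 was its highest array in both control groups and its lowest in salt-stressed IR29, while the salt-stressed FL478 arrays were nearly equal, at 7.91 to 7.96. Whether a step shared by the arrays numbered 2 moves with these genes was not tested. Over all probe sets, deviations of arrays with the same number had correlations between -0.051 and 0.132. Those of arrays with different numbers, from different groups, lay between -0.153 and 0.153.

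**Figure D2:**
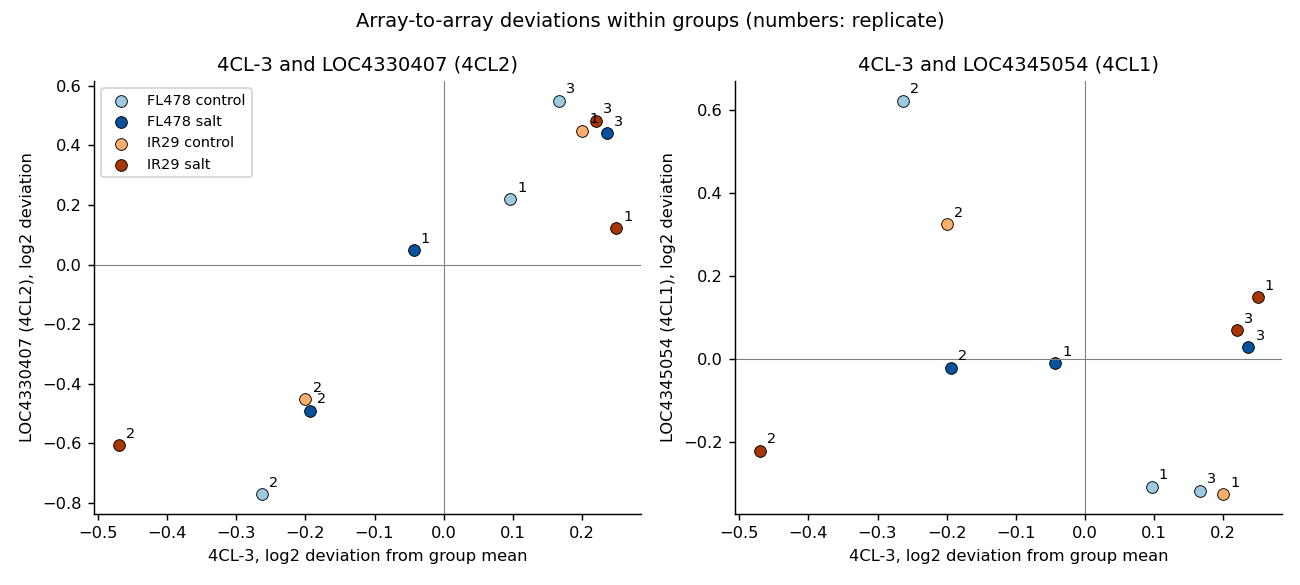
Deviation of each array from the mean of its group on the log2 scale, for 4CL-3 (x axis) against LOC4330407 (left) and LOC4345054 (right). Numbers are replicate numbers and colours are groups. The arrays numbered 2 are lowest for both genes in the left plot in all 4 groups, and the points of the right plot show no such order.

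CCR1 codes for a cinnamoyl-CoA reductase that in rice is also known as an effector of the small GTPase Rac1 in defence. Its intensities were 32.3 and 18.5 in IR29 controls, and 35.7, 34.4 and 14.6 under salt. In FL478 they were 46, 16.5 and 25.8 in controls and 6.2, 13.6 and 22 under salt. Of the 11 arrays, 2 of salt-stressed FL478 and 1 of salt-stressed IR29 lay under the pseudocount, and the gene is not shown to exceed background in any group. The log2 differences of 0.23 ± 0.43 in IR29 and -0.65 ± 0.39 in FL478 depend on the pseudocount. With a pseudocount of 1 the FL478 value was -1.17, and neither was called.

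LAC20 codes for a laccase. It had 234.4 and 110 in IR29 controls and 779.3, 477.4 and 905.8 under salt. In FL478 it had 89.3, 73.6 and 4.2 in controls and 94.7, 140.2 and 58.7 under salt. The salt-stressed IR29 arrays were the highest of all, with the lowest of them at more than the highest control of either line. The log2 difference in IR29 was 1.93 ± 0.65 (95% interval 0.50 to 3.35, n = 3 and 2, adjusted p = 0.498 by limma), number 85 of 57258 counted from the most positive change. In FL478 it was 0.79 ± 0.58, which rests on control replicate 3, since without that array it was -0.01. The adjacent laccase gene in the RefSeq gene order, LAC19, had -0.36 ± 0.21 in IR29. Its group means of 4.18 to 4.66 lay under the level of the pseudocount, so it is not shown to exceed background.

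Secondary wall markers were also higher on the IR29 salt arrays than on the controls. The summed intensity of CESA4, CESA7, CESA9 and IRX9L, the 4 measured of 10 listed markers of xylem and secondary walls, was 4404 to 4963 in IR29 controls and 7434 to 10368 under salt. In FL478 it also separated the groups, at 4658 to 5196 in controls and 5493 to 7611 under salt. Taken singly, each of the 4 separated the IR29 groups. In FL478 CESA4 and CESA7 did so, while CESA9 (211 to 292 and 274 to 370) and IRX9L (1180 to 1260 and 1140 to 1370) overlapped. Of all probe sets, 10.8% separated in this direction in IR29 and 5.49% in FL478, after normalization. No marker of the 4 was near 0 on any array. None was called in IR29 (adjusted p = 0.09 to 0.353 by limma) or in FL478. The summed intensity of dividing-cell markers, 6 measured of 8 listed, separated the IR29 groups the other way, at 27112 to 31951 in controls and 20289 to 26358 under salt. In FL478 it overlapped, at 26286 to 31428 and 22386 to 26380. Taken singly in IR29, CYCB2-2, CDKB2-1 and MCM2 separated the groups, while PCNA, CYCB2-1 and MCM5 overlapped. None of these was called in IR29 (adjusted p = 0.471 to 0.949 by limma). Of all probe sets, 12.7% separated the IR29 groups in that direction after normalization. The leaf sum overlapped in IR29, at 27266 to 47404 and 35577 to 40652, and its genes differed. RCA lay at 1180 to 2150 in controls and 2500 to 3980 under salt. RBCS1, close to the pseudocount, went the other way, at 26 to 33.8 in controls and 2.5 to 23.3 under salt. RBCS and CAB2R overlapped. As a measure of RNA quality, the cyclophilin 3' signal over its 5' signal, in log2, was 0.998 to 1.164 on the IR29 salt arrays against 0.707 and 0.907 in controls. The same ratio for actin was 0.658 to 0.786 against 0.481 and 0.504. For GAPDH it overlapped, at 0.335 to 0.561 against 0.281 and 0.557. The part of any of these in the values of PAL06, 4CL-3 and LAC20 was not tested.

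**Figure D3:**
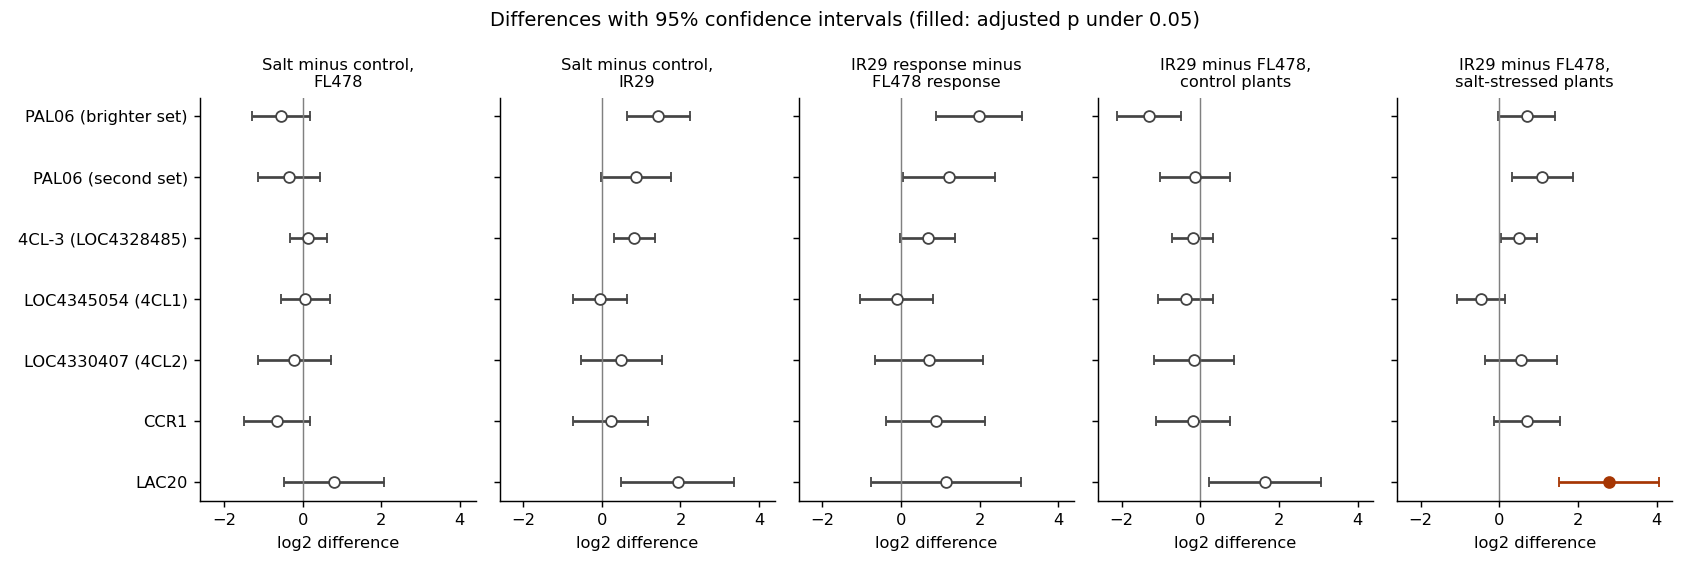
Log2 differences of each probe set in the 5 comparisons, with 95% confidence intervals from the fit over all arrays. Filled points passed an adjusted p of 0.05. The 1 filled point is LAC20 in salt-stressed IR29 against salt-stressed FL478, at 2.79 (1.52 to 4.06).

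The next comparison asked whether the salt response differs between the lines, as the IR29 response minus the FL478 response. For 5 of the 6 genes the difference lay above 0, against 48.4% of all probe sets, and LOC4345054 had -0.11 ± 0.43. PAL06 had the largest, 1.99 ± 0.50 at the brighter probe set (95% interval 0.90 to 3.08, adjusted p = 0.746 by limma) and 1.22 ± 0.54 at the other. The value for 4CL-3 was 0.68 ± 0.32, for LOC4330407 0.71 ± 0.63, for CCR1 0.88 ± 0.58 and for LAC20 1.14 ± 0.88. The LAC20 value rests on single arrays. It was 1.95 without FL478 control replicate 3, close to the 1.96 of PAL06 in that fit, 0.63 without FL478 control replicate 1 and 0.70 without IR29 control replicate 2. None was called, and neither was any other probe set (0.0% of those tested), while 3059 (5.34%) lay under an unadjusted p of 0.05. The brighter PAL06 probe set ranked 135 of 57258 by p. All IR29 and difference values rest on 2 IR29 controls, and without IR29 control replicate 2 limma called 21 probe sets for the difference, none of them of these genes.

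The lines were then compared directly. LAC20 was 6.92-fold higher in salt-stressed IR29 than in salt-stressed FL478, with a log2 difference of 2.79 ± 0.58 (n = 3 and 3, adjusted p = 0.0325 by limma). This was the 1 call among the 6 genes, where 1.73% of all probe sets were called and 0.824% of all were called higher in IR29. The xylem and secondary wall sum was 7434 to 10368 on these IR29 arrays against 5493 to 7611 on the FL478 arrays, and its part in the call was not tested. The 3 IR29 arrays, at 477.4 to 905.8, did not overlap with the 3 FL478 arrays, at 58.7 to 140.2, as was so for 8.65% of probe sets in this direction. The call ended with a pseudocount of 1 (adjusted p = 0.164), with 1 variance prior for all probe sets (0.0785), and without FL478 salt replicate 1 or 3 (0.114 and 0.151) or IR29 salt replicate 1, 2 or 3 (0.147, 0.0607 and 0.14). Over all 20 alternatives the log2 difference stayed between 2.5 and 3.05.

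In control plants LAC20 had a log2 difference of 1.65 ± 0.65 in IR29 against FL478 (n = 2 and 3, adjusted p = 0.45 by limma). Both IR29 controls lay above all FL478 controls, as did 11.5% of all probe sets, but without FL478 control replicate 3, at 4.2, the difference was 0.85. PAL06 had the opposite sign at its brighter probe set, with a log2 difference of -1.30 ± 0.37 (adjusted p = 0.2), and both IR29 controls below all FL478 controls, as for 11.1% of all probe sets. The other PAL06 probe set overlapped between the lines and had -0.13 ± 0.40, so its probe sets disagree on the size of this difference. Under salt both lay above 0. The brighter had 0.69 ± 0.33 with overlapping arrays (adjusted p = 0.47 by limma). The other had 1.09 ± 0.36 (adjusted p = 0.22) with all IR29 arrays higher, as for 8.65% of all probe sets. At the brighter probe set the difference between the salt responses is thus made up of a lower control mean in IR29 and a higher salt mean. The salt arrays of the lines overlapped there.

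Salt-stressed IR29 arrays lay below all salt-stressed FL478 arrays for LOC4345054, at 131 to 179.6 against 219.3 to 241.6, as did 9.46% of all probe sets. Its log2 difference was -0.47 ± 0.28 (adjusted p = 0.593 by limma). For 4CL-3 the difference under salt was 0.50 ± 0.21 (adjusted p = 0.396) with overlapping arrays. LOC4330407 and CCR1 overlapped between the lines in both conditions, with log2 differences of 0.55 ± 0.42 and 0.70 ± 0.39 under salt and of -0.16 ± 0.47 and -0.18 ± 0.43 in controls. Between lines, a difference in transcript level and a difference in how the probes match the line's own sequence cannot be told apart.

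The order of the group means was compared last. Salt-stressed IR29 had the highest mean for PAL06, 4CL-3, LOC4330407 and LAC20, and the lowest for LOC4345054. For LAC20 the order was salt-stressed IR29 (9.47 ± 0.47, SD), IR29 control (7.54 ± 0.60), salt-stressed FL478 (6.68 ± 0.56) and FL478 control (5.89 ± 1.40), and all neighbours but the top pair overlapped. For PAL06 at its brighter probe set it was salt-stressed IR29 (7.36 ± 0.32), FL478 control (7.22 ± 0.26), salt-stressed FL478 (6.67 ± 0.53) and IR29 control (5.92 ± 0.08). There only the last stood apart from its neighbour. For 4CL-3 the means ran from 9.98 ± 0.41 in salt-stressed IR29 to 9.15 ± 0.28 in IR29 controls, and every neighbouring pair overlapped. For CCR1 they lay near the pseudocount, between 4.82 and 5.53, and gave no order: the log2 mean was highest in salt-stressed IR29, and the mean intensity was highest in FL478 controls (29.4 against 28.2). The means of LOC4330407 (7.15 to 7.70) and LOC4345054 (7.46 to 7.93) also had every neighbouring pair overlapping.

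The wider pathway was described with a list of genes named for its steps, of which 31 of 40 were measured: 1 PAL, 8 4CL and 4CL-like, 3 hydroxycinnamoyl transferase (HCT), 2 O-methyltransferase, 1 CCR, 7 CAD and 9 laccase genes. In IR29 20 of the 31 lay above 0, against 48.7% of all probe sets, and the median log2 change was 0.16, against -0.01 over all probe sets. In FL478 12 lay above 0, against 50.6% of all probe sets, with a median of -0.11 against 0.00. None was called in either line. At an unadjusted p under 0.05, 7 were higher and 1 lower in IR29, where the shares over all probe sets were 3.6% and 3.77%. In FL478 1 was higher and 1 lower, which is near the shares of 2.81% and 2.61%. For the IR29 response minus the FL478 response, 24 of 31 lay above 0, against 48.4% of all probe sets, with a median of 0.48 against -0.02, and 0 were called. Without the 6 genes the counts above 0 were 15 of 25 in IR29, 9 of 25 in FL478 and 19 of 25 for the difference, with medians of 0.09, -0.11 and 0.33. Of these 25, 4 were higher and 1 lower in IR29 at an unadjusted p under 0.05. The responses share arrays with their difference, and the list was drawn up with earlier results of these data known.

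**Figure D4:**
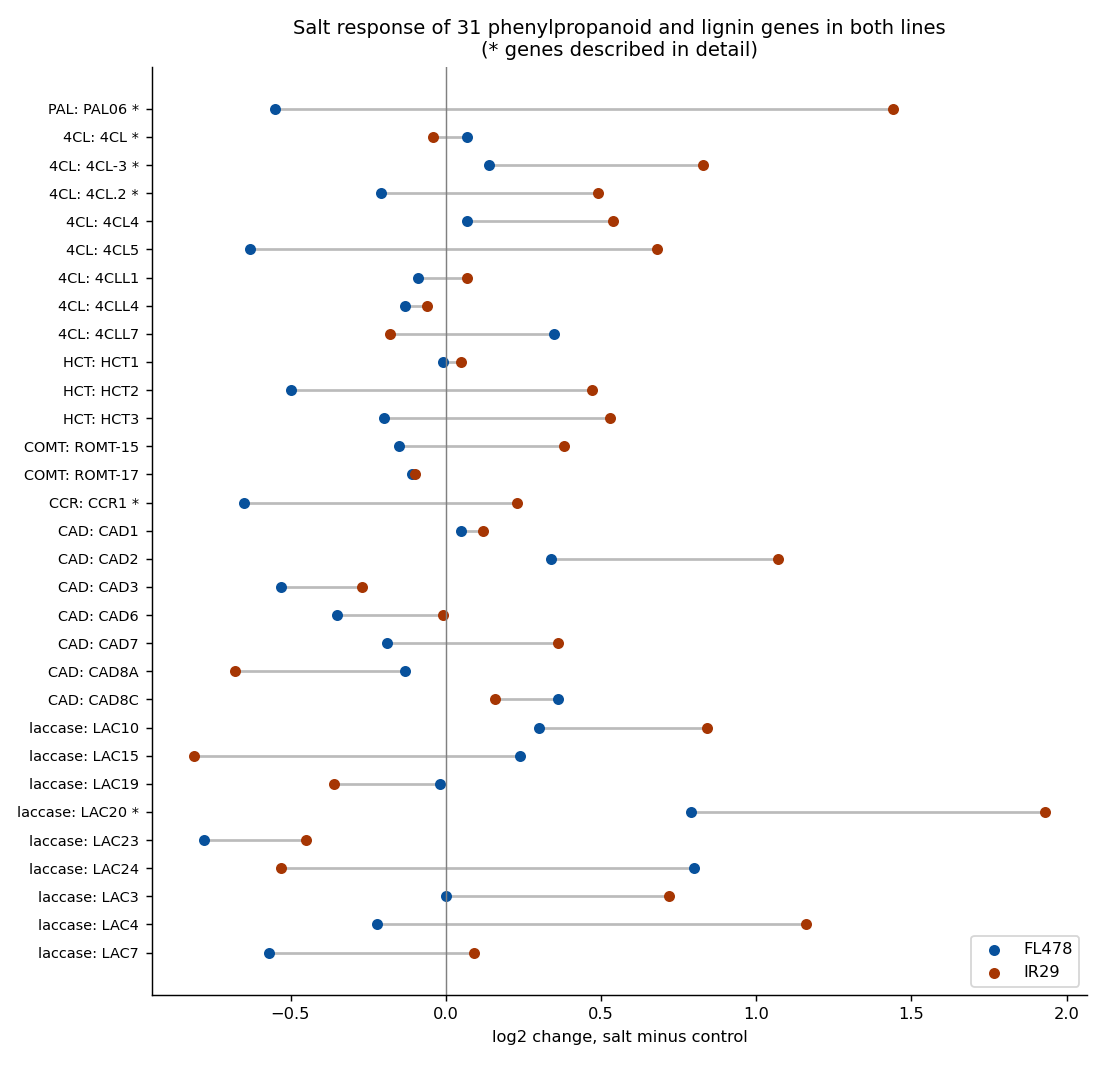
Log2 change between salt and control in FL478 (blue) and IR29 (brown) for the 31 measured genes of the pathway list, ordered by step, at the brightest probe set of each gene. Asterisks mark the 6 genes, and 4CL and 4CL.2 are LOC4345054 and LOC4330407. For 24 of the 31 genes the IR29 point lies to the right of the FL478 point, and PAL06 and LAC20 have the highest IR29 values (1.44 and 1.93).

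Among the other genes of the list, the laccase gene LAC4 had 1.16 ± 0.39 in IR29 and -0.22 ± 0.35 in FL478, a difference of 1.38 ± 0.53 (adjusted p = 0.916 by limma). HCT2, of a family that makes shikimate esters on the way to lignin, had 0.47 ± 0.31 and -0.50 ± 0.27, a difference of 0.97 ± 0.41. Laccase LAC24 had a difference of -1.33 ± 0.58, but its group means of 4.15 to 4.95 lay under the level of the pseudocount, so it is not shown to exceed background. The 4CL-like gene 4CLL7 had -0.18 ± 0.17 in IR29 and 0.35 ± 0.16 in FL478, a difference of -0.53 ± 0.23. Laccase LAC23 had -0.78 ± 0.26 in FL478 and CAD8A -0.68 ± 0.30 in IR29. Of the 9 laccase genes, 4 had values below 0 in IR29, and of these LAC23 alone lay clear of the pseudocount, with group means of 7.36 to 8.25. Chosen after values were seen, CAD2 had the smallest p of the list in IR29, with 1.07 ± 0.20 (2.1-fold, adjusted p = 0.144 by limma). It had 0.34 ± 0.18 in FL478, a difference of 0.73 ± 0.27. LAC10 (0.84 ± 0.28) and LAC3 (0.72 ± 0.31) were the other genes under an unadjusted p of 0.05 in IR29, chosen in the same way.

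Between the lines, 25 of the 31 lay above 0 for IR29 against FL478 under salt (47.9% of all probe sets), with a median of 0.32 against -0.02, and 13 of 31 in control plants (50.5% of all probe sets), with a median of -0.12 against 0.00. The count in control plants was 18 without IR29 control replicate 2, so it has no settled side. Under salt LAC20 was the 1 gene called. In control plants 4CLL7 was the 1 gene called, higher in IR29 by 0.96 ± 0.17 (1.94-fold, adjusted p = 0.0241 by limma), where 0.814% of all probe sets were called.

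The genes whose levels followed each of the 6 most closely over the 11 arrays were found by Pearson correlation among 2174 genes with a descriptive name and a mean level of at least 6. The values are descriptions, since all pairs share the same arrays and the 4 groups. PAL06 was followed by the phosphate transporter gene OsPht1;1 (r = 0.83), the calmodulin-like gene CML9 (0.81) and the phosphate signalling gene OsSPX2 (0.75). 4CL-3 was followed by the homeodomain-leucine zipper gene Hox22 (0.91), the beta-glucosidase gene BGLU5 (0.90) and the protein phosphatase gene OsPP2C09 (0.89). LOC4345054 was followed by GSTZ5, NEDD8 and ADF-2 (0.93, 0.91 and 0.90). LOC4330407 was followed by the transporter gene ABCG42 (0.95), ADI1 of methionine recycling (0.94) and SAM2, of S-adenosylmethionine synthesis (0.93). CCR1 was followed by MYBS1, OsTLP14 and OsWNK3 (0.84, 0.83 and 0.83), at levels near the pseudocount. LAC20 was followed by BHLH175, the tubulin gene OsTUB8 and the ABC transporter gene mdr17 (0.94, 0.92 and 0.91). Of the 6 genes, the 5 other than CCR1, whose level is under the minimum, could have been named for another of them, and none was.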

How the data were processed

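The authors deposited linear intensities, 1 for each probe set on each array, and the submitters' processing notes name GCOS 1.2. The expression algorithm is not named in the labels. The equal trimmed means show a scaling per array.

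The 123 control probe sets were left out of 57381 and no dim probe set was removed. The array medians of log2(intensity + 16) differed by up to 0.47, above a limit of 0.1, so arrays were quantile normalized. The model, fitted with limma 3.58.1 (R 4.3.3), had a mean for each of the 4 groups, 11 arrays and 7 residual degrees of freedom, and its variance prior was a trend on mean level. Two-sided p-values were adjusted over the 57258 probe sets (Benjamini-Hochberg), with a call at an adjusted p under 0.05. The fit was tested on simulated data. Errors are standard errors from the fit unless given as SD. The labels call the arrays biological replicates but name no separate cultures, so p-values measure the spread between these samples.

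Genes were named from the array's annotation table through the RefSeq gene table of ASM3414082v1, which is not the array's build, so no coordinates are given. Of the probe sets 22436 had 1 gene, 95 several and 34727 none. Named genes are the 6 genes, the up to 3 genes of the pathway list with the largest log2 change in each direction among those with an unadjusted p under 0.05 in the salt responses and their difference (the 6 genes take places among them), called genes, and the 3 most correlated genes of each. A gene stands for its brightest probe set. LOC4330034, LAC19, CAD2, LAC10 and LAC3 fell outside this rule and were chosen after values were seen. The list has no cinnamate hydroxylase gene, since no name matched. The members and lists were chosen with earlier results of these data known. Python 3.11.15 with pandas 2.3.3 drew up the tables and matplotlib 3.10.9 the plots. The 9 alternative settings and the 11 fits without 1 array are given in the closing section.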

Additional observations from a re-analysis of the deposited data

How the results depend on the processing

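Over the 6 genes, both PAL06 probe sets, the 5 comparisons and 20 alternatives, 664 values kept their direction and side of the threshold, 7 calls of LAC20 ended and 17 values changed sign, none of them called. With a pseudocount of 1 LAC20 under salt was 3.0 between the lines, and with 1 variance prior 2.79, both without a call. Leaving out 1 array gave it 2.5 to 3.05. Apart from LAC20 in FL478, the sign changes came at values near 0 in the main fit. For LOC4345054 the fits without 1 array ran from -0.09 to 0.38 in FL478, from -0.37 to 0.28 in IR29 and from -0.44 to 0.22 for the difference. For LOC4330407 they ran from -0.6 to 0.07 in FL478 and from -0.62 to 0.29 between control plants. Between control plants 4CL-3 ran from -0.38 to 0.01, CCR1 from -0.4 to 0.18 and the dimmer PAL06 probe set from -0.45 to 0.16. LAC20 in FL478, at 0.79 in the main fit, ran from -0.01 to 1.29, the lowest without control replicate 3. The cause of these changes was not tested, beyond the array left out.

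The replicate number as a block gave 0.09 for LOC4330407 between control plants and ended or made no call of the 6 genes. It gave 14 probe sets called for salt in IR29 in place of 3, and the numbers are not shown to pair the samples. Salt in FL478 had 5 calls, with 8 at a pseudocount of 1, 2 at a pseudocount of 32, 8 with dim probe sets left out, 1 with 1 variance prior, 2 with array weights, 0 with only the groups compared and 0 to 4 without 1 array. Salt in IR29 had 5 with dim probe sets left out, 5 with array weights, 0 with only the groups compared and 0 to 65 without 1 array, the highest without IR29 control replicate 2. The difference had 0 to 21 without 1 array, the highest again without that array. Between the lines, control plants had 466 calls, 150 with only the groups compared and 267 to 525 without 1 array. Salt-stressed plants had 992 calls, 1660 with array weights and 543 to 1279 without 1 array. Where IR29 has 1 control left, that array is assumed to vary like the other groups.

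The pathway list had 10 to 14 of its genes above 0 in FL478, 19 to 21 in IR29 and 22 to 25 for the difference over all alternatives, 23 to 26 between the lines under salt and 10 to 18 in control plants, its mean over all probe sets of a gene included. CCR1 has no value with dim probe sets left out, and the difference needs all groups. CCR1 lies near the pseudocount, as does LAC20 in FL478 control replicate 3, which limits the size of the changes that use them.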
